A study of Mus musculus with 9 samples.

Results

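The genes described here are the 4 Notch receptors, Notch1, Notch2, Notch3 and Notch4, and 4 of their ligands, Dll1, Dll4, Jag1 and Jag2. They were taken by name from a mouse gene annotation, and all 8 were found among 21887 protein-coding genes on chromosomes 1 to 19, X and Y. For each, peaks of the histone deacetylases Hdac1 and Hdac2 were recorded at the annotated gene ends (1000 bp either side), in the gene body and within 50 kb. The peaks came from chromatin immunoprecipitation and sequencing (ChIP-seq) of untreated haemogenic endothelium grown in culture from mouse embryonic stem cells of the C57BL/6 strain. Hdac1 was precipitated with a Diagenode antibody and Hdac2 with an abcam antibody, each once in the lines Bry (passages 16 to 19), Hd1_loxlox and Hd2lox (both at passages 25 to 30). That gave n = 3 lines per antibody and 1 library per line and antibody. The labels give the lines by name only, with no genotype, and name no separate cultures, so that the spread between libraries may be partly technical. Another 3 libraries, 1 input per line, were not analysed here. The files hold peak positions and no expression, so the labelled cell type could not be checked against its markers.

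Notch receptors sit in the membrane of one cell and are bound by Delta-like or Jagged ligands on a neighbouring cell. Binding allows proteases to cut the receptor, and its intracellular part moves to the nucleus, where it joins the DNA-binding protein Rbpj and turns on targets such as Hes1. Without that fragment Rbpj recruits co-repressors, some of which carry histone deacetylases. Notch1 is required for the emergence of blood stem cells from arterial endothelium in the mouse embryo, Dll4 and Jag1 are ligands of that endothelium, and Notch4 is expressed mainly in endothelial cells.

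The 6 lists held between 5161 and 9279 peaks, with no read count or height, so read depth is unknown, and where no peak is listed the reads may have been too few to call one. The Hdac2 list of Hd1_loxlox stood apart from the others. It had a peak at an end of 2.71% of protein-coding genes, whereas the other 5 lists had one at 13.5% to 34.4%. Counts below are therefore also given without that list. The peaks of Hdac2 in Hd2lox were narrow, with a median of 822 bp, whereas the median widths of the other lists ran from 1099 to 1475 bp.

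Peaks of Hdac1 and of Hdac2 lay at the ends of most Notch receptor and ligand genes. Notch1, Notch2, Notch4, Jag1 and Jag2 had end peaks in the Hdac1 lists of all 3 lines and in the Hdac2 lists of Bry and Hd2lox, a combination seen at 6.69% of protein-coding genes. Notch3 had one in 2 Hdac1 lists and 2 Hdac2 lists, Dll1 in 1 list of each antibody, and Dll4 in the Hdac2 list of Bry only. By library, Hdac1 was at the ends of 5 of the 8 genes in Bry, where 31.9% of protein-coding genes had it. In Hd1_loxlox it was at 7, against 31.7% of protein-coding genes, and in Hd2lox at 6, against 24.3%. Hdac2 was at all 8 in Bry, against 34.4% of protein-coding genes, at 1 in Hd1_loxlox, against 2.71%, and at 5 in Hd2lox, against 13.5%. The combination of 5 lists depended on the window. With windows of 500 bp, Notch4 had end peaks only in Hdac1 of Bry and Hd2lox and in Hdac2 of Bry. At that setting Jag2 lacked Hdac1 in Bry, and Jag1 kept Hdac2 in Hd2lox by 54 bp.

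**Figure D1:**
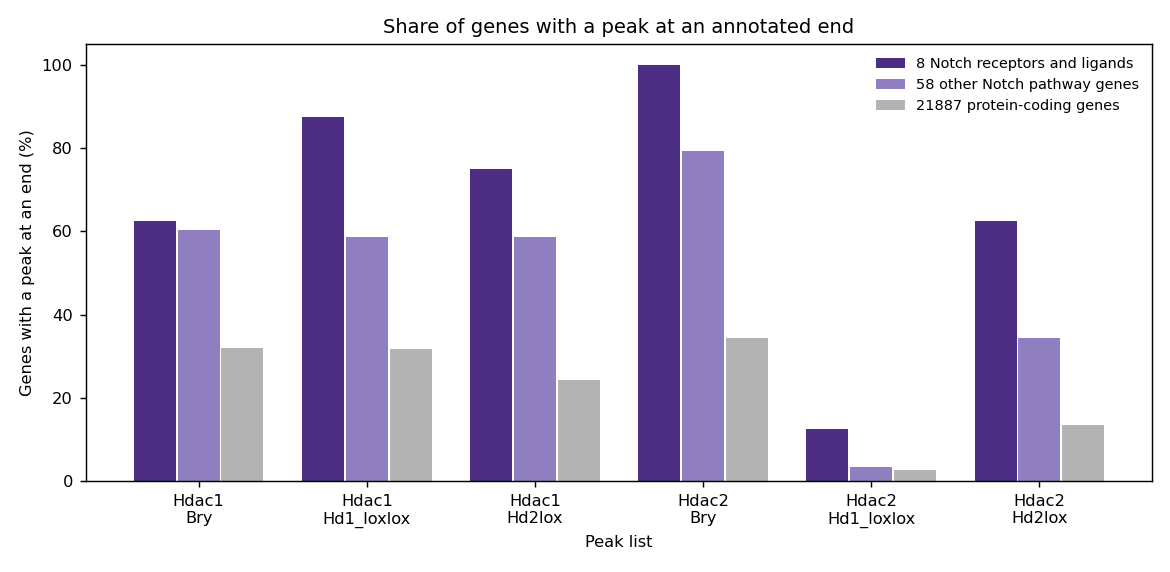
Percent of genes with a peak within 1000 bp of an annotated end, in each of the 6 peak lists, for the 8 Notch receptors and ligands, 58 other Notch pathway genes and all 21887 protein-coding genes (1 library per group of bars, no error bars). In every list the bar of the 8 genes is the highest, from 12.5% for Hdac2 in Hd1_loxlox to 100% for Hdac2 in Bry. Each of the 8 genes is worth 12.5%, so the Hd1_loxlox Hdac2 bar is 1 gene. For Hdac1 in Bry the bar is 62.5%, against 60.3% of the other pathway genes.

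Counted over lines, Hdac1 was at an end of 6 of the 8 genes in 2 or more of the 3 lines, against 30.2% of protein-coding genes, and 5 had it in all 3, against 14.6%. For Hdac2 the counts were 6 in at least 2 lines, against 10.6%, and 0 in all 3, against 0.603%. The 6 genes were the same for the antibodies, and Dll1 and Dll4 were the genes left out. Without the Hd1_loxlox Hdac2 list, 5 genes had Hdac2 in both remaining lines, against 9.61% of protein-coding genes, Notch3 being the one lost. With Bry left out the Hdac2 count was 0, against 0.731%, and with Hd2lox left out it was 1, against 1.44%, since both settings require a peak in the Hd1_loxlox list. Among peaks at or above the median width of their list, the Hdac1 count was 4, against 14.7%, and the Hdac2 count 1, against 5.16%. As these genes are a short list chosen with earlier results of these data known, no test of the list was made.

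Most of these peaks were at the start of the gene. Taking the 5′ end alone, Hdac1 was at 5 of the 8 genes in at least 2 lines, against 29.2% of the 17492 genes for which a promoter table gave the strand, and Hdac2 was at 5, against 9.4%. Notch4 was the exception, with no peak at its 5′ end in any list, as for 54.3% of genes. Inside gene bodies, Hdac1 peaks lay in 7 genes in at least 2 lines, against 33.2% of protein-coding genes, and Hdac2 peaks in 5, against 17.9%. Over the gene and 50 kb either side, Hdac1 reached 8 genes, against 56.7%, and Hdac2 reached 6, against 49.2%. In all, the 8 loci held 62 peaks, 32 of Hdac1 and 30 of Hdac2, which merged into 25 regions, 9 of them at an end of the gene itself. A region here is a stretch of overlapping peaks, and 13 of the 25 were in 1 list only.

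The promoters differ in their content of CpG, the dinucleotide that is concentrated in the promoters of many widely used genes. The 4 sequences below show that range and include the gene with no 5′ peak, Notch4, and the gene with a peak in 1 list, Dll4. Each is the 250 bases before the listed start site, 5′ to 3′ on the strand of the gene, from RefSeq (GRCm38.p6), with CpG in capitals. The positions are chr3:98013288-98013537 on the plus strand for Notch2, chr2:26503823-26504072 on the minus strand for Notch1, chr2:119325534-119325783 on the plus strand for Dll4 and chr17:34564045-34564294 on the plus strand for Notch4.
Notch2: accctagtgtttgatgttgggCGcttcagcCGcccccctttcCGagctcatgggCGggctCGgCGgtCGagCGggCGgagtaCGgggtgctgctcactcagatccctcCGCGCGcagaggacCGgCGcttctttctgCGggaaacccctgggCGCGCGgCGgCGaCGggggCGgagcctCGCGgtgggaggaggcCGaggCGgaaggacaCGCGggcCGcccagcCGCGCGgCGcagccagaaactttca
Notch1: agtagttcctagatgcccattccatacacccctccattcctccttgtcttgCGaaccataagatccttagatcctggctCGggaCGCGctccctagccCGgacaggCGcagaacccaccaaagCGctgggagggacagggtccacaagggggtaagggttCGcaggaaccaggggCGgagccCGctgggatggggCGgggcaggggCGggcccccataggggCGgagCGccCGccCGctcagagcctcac
Dll4: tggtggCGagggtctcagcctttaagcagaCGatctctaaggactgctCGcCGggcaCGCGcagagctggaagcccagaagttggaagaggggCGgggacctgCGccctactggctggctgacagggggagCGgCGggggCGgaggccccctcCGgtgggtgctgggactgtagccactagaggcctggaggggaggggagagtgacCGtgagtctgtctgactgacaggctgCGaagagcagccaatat
Notch4: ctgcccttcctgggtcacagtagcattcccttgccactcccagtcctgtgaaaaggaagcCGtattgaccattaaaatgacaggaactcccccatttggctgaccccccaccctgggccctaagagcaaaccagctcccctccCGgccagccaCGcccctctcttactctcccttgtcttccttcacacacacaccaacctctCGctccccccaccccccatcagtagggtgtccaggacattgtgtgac

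In these 250 bases Notch2 had 34 CpG, Notch1 had 16, Dll4 had 14 and Notch4 had 4. As the ratio of observed CpG to the number expected from the C and G content, Jag2 had 1.14, Notch2 1.06 and Jag1 0.98. The listed starts of Dll1 had 0.825 and 0.664, Notch3 had 0.595, Notch1 0.588 and Dll4 0.557. Notch4 was lowest at 0.226, at the 26th percentile of 21255 promoters of protein-coding genes, whose median was 0.53. Across all these promoters, the share with a peak within 1000 bp of the start grew with the ratio in every list except Hdac2 of Hd1_loxlox. For Hdac1 in Bry it was 8.04% between 0.2 and 0.4, the class of Notch4, 26.3% between 0.4 and 0.6, the class of Notch1, Notch3 and Dll4, and 74.9% at 1.0 and above, the class of Notch2 and Jag2. For Hdac2 in Bry the corresponding shares were 9.53%, 30.3% and 73.8%, and in Hd2lox 3.28%, 9.66% and 31.7%. For Hdac2 in Hd1_loxlox they were 1.12%, 1.76% and 2.43%. The class of 1 Dll1 start, 0.6 to 0.8, had 49.3% for Hdac1 in Bry. That of Jag1 and the other Dll1 start, 0.8 to 1.0, had 63.7%. The 8 genes did not all follow this order. Dll1 had end peaks in 2 lists and Notch1, with a lower ratio, in 5, while Dll4, in the class of Notch1, had 1. Promoters of genes are not independent replicates, and these shares are a description.

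**Figure D2:**
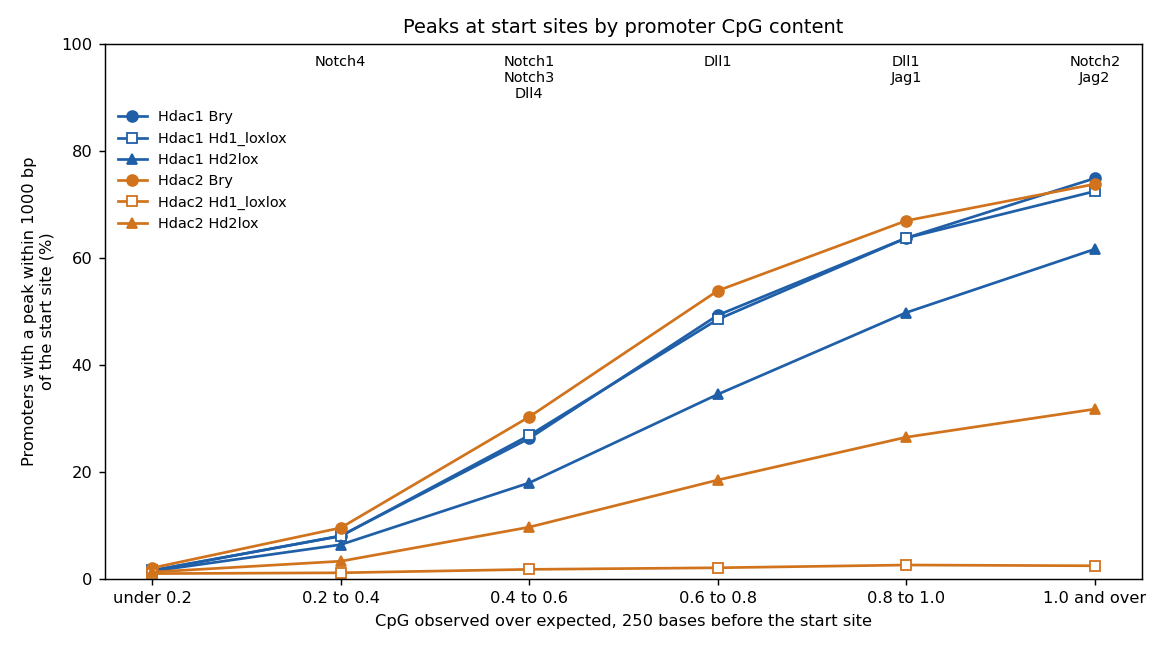
Percent of protein-coding promoters with a peak within 1000 bp of the listed start site, by observed over expected CpG in the 250 bases before it, for the 6 lists (blue Hdac1, orange Hdac2; symbols mark the lines). The names at the top give the class of each Notch receptor and ligand promoter; Dll1 has 2 listed starts, and the share rises from left to right in 5 lists.

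Short motifs were searched in the same 250 bases on both strands, and a match is a description only. The GC box GGGCGG was in 5 of the 9 promoters, those of Notch1, Notch2, Notch3, Dll4 and Jag2, and in 42.6% of all promoters. CCAAT was in 2 of the 9, Dll4 and the downstream start of Dll1, and in 35.4% of all. TGACGT, part of the binding sequence of CREB factors, was in that of Notch3 and in 7.37% of all. None of the 9 held the Rbpj core TGGGAA (20.9% of all promoters), CCGGAA (15.0%), AGATAA (8.81%), CACGTG (6.63%) or TATAAA (11.6%).

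Notch1 (chromosome 2, 26457902-26503822, minus strand) carried some of the widest peaks of the group. The Hdac1 peak over its start was 2702 bp wide in Bry, 2924 bp in Hd1_loxlox and 2073 bp in Hd2lox, at the 96.3rd, 96.6th and 85.9th width percentiles of those lists. Hdac2 in Bry had 2 narrower peaks there, of 1166 and 790 bp, with a gap in between, and in Hd2lox 1 peak of 1282 bp at the 95.8th percentile. All 5 lists covered the stretch from 26503307 to 26504178, which includes the start site. The long non-coding gene Gm35978 has an annotated end beside it, at 26503927, so the peaks cannot be assigned to one of the pair. Hdac2 of Bry had 2 further peaks inside the gene, 5022 and 9841 bp downstream of the start, and both were among the narrowest of that list (2.30th and 4.54th percentiles).

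Notch2 (chromosome 3, 98013538-98150367, plus strand) had 1 compact peak at its start in 5 lists. Hdac1 peaks measured 1679 bp in Bry, 1510 bp in Hd1_loxlox and 1282 bp in Hd2lox, and Hdac2 peaks 1080 bp in Bry and 898 bp in Hd2lox. All 5 covered the start site, and 794 bp were common to them. No list had another peak in the gene, and the only other peak of the locus was one of Hdac2 in Hd2lox, 17138 bp beyond the 3′ end.

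Notch3 (chromosome 17, 32120820-32166896, minus strand) was the only one of the 8 genes with a peak in the Hd1_loxlox Hdac2 list. That peak was 1188 bp wide, ran from -353 to 834 bp around the start (negative is upstream), and lay at the 62.3rd percentile of its list. Hdac1 of Hd2lox also covered the start, with 1016 bp. Hdac1 of Hd1_loxlox (1260 bp) and Hdac2 of Bry (1024 bp) began 135 and 222 bp downstream of it. Hdac1 of Bry and Hdac2 of Hd2lox had no peak there. Over all protein-coding genes, 7 genes including Notch3 had an end peak in exactly these 4 lists. The other peaks of the locus were in 1 list each, among them a Hd1_loxlox Hdac2 peak 25467 bp upstream of the start.

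Notch4 (chromosome 17, 34564286-34588543, plus strand) had its peaks at the other end. The same 5 lists as for Notch1 had a peak over the last part of the gene, in the region 34586250-34588787, with 559 bp common to all of them. Hdac1 peaks were 1308 bp wide in Bry, 1102 bp in Hd1_loxlox and 1966 bp in Hd2lox, and Hdac2 peaks 1791 bp in Bry and 793 bp in Hd2lox. The Bry Hdac2 peak ran past the annotated end of the gene and the other 4 stopped before it. A 3′-end peak in these 5 lists was found at 67 genes, 0.383% of those with a known strand. Of the 67, 16 had no peak at the 5′ end in any list. Only Dapk3 and Notch4 among the 16 had, in each of the 5 lists, a 3′-end peak that touched no end window of another gene (this count was chosen after the values were seen). At Notch4 this rested on the window size. The Bry Hdac2 peak ended at 34588787, just short of the end window of the neighbour Gpsm3. With windows of 500 bp, Hdac1 of Hd1_loxlox and Hdac2 of Hd2lox had no peak at the Notch4 3′ end. The neighbour Gpsm3 begins at 34589806, and a separate Hdac2 peak of Bry, 34589204-34590460, lay over that end. Another 4 regions lay farther on, and the nearest of them, between Gpsm3 and Pbx2, was in all 3 Hdac1 lists and in no Hdac2 list.

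Dll1 (chromosome 17, 15367354-15376932, minus strand) has 2 listed starts, and its peaks were at the downstream one, at 15375823. Hdac2 of Bry had a peak of 2188 bp from -999 to 1188 bp around it, and Hdac1 of Hd1_loxlox a peak of 1364 bp. The Hdac1 peak of Hd2lox, 1043 bp wide, began 198 bp downstream of that start and fell outside the window of the outer end. With all listed starts counted in place of the outer ends, Dll1 had Hdac1 in 2 of 3 lines. Hdac1 of Bry and the other 2 Hdac2 lists had no peak in the gene.

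Dll4 (chromosome 2, 119325784-119335666, plus strand) had an end peak in the fewest lists of the 8, 1 of 6. Its start lay in 1 peak, of Hdac2 in Bry, 1766 bp wide at the 79.9th percentile of that list. The non-coding gene Gm14207 has an annotated end inside Dll4, at 119326197, so that peak covers both the Dll4 start and that end. The nearest Hdac1 peak, in Hd1_loxlox, was 3166 bp upstream of the Dll4 start, and Hdac1 of Bry had a peak 36517 bp upstream at the end of Vps18. Hd2lox had no peak of either antibody in the gene or within 50 kb.

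Jag1 (chromosome 2, 137081451-137116520, minus strand) and Jag2 (chromosome 12, 112907803-112929812, minus strand) each had peaks in the same 5 lists. At Jag1 the Hdac1 peaks were 1613 bp wide in Bry, 2785 bp in Hd1_loxlox and 1885 bp in Hd2lox, and all 3 covered the start. The Hdac2 peak of Bry was 2386 bp wide and covered it, with a second peak of 1283 bp beginning 1342 bp downstream. The Hdac2 peak of Hd2lox, 787 bp wide, lay wholly upstream of the start, at a distance of 447 bp, and no base was common to all 5 lists. At Jag2 965 bp were common to the 5 lists. Hdac1 measured 1144 bp in Bry, 2639 bp in Hd1_loxlox and 2795 bp in Hd2lox, and Hdac2 2180 bp in Bry and 1949 bp in Hd2lox. The Hd2lox Hdac2 peak was the 30th widest of its 9082 peaks. The Bry Hdac1 peak began 319 bp downstream of the listed start, while the other 4 covered it. Jag2 also had a distant region, 112976002-112977514, more than 46 kb upstream, in 2 Hdac1 and 2 Hdac2 lists and at the end of no annotated gene.

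**Figure D3:**
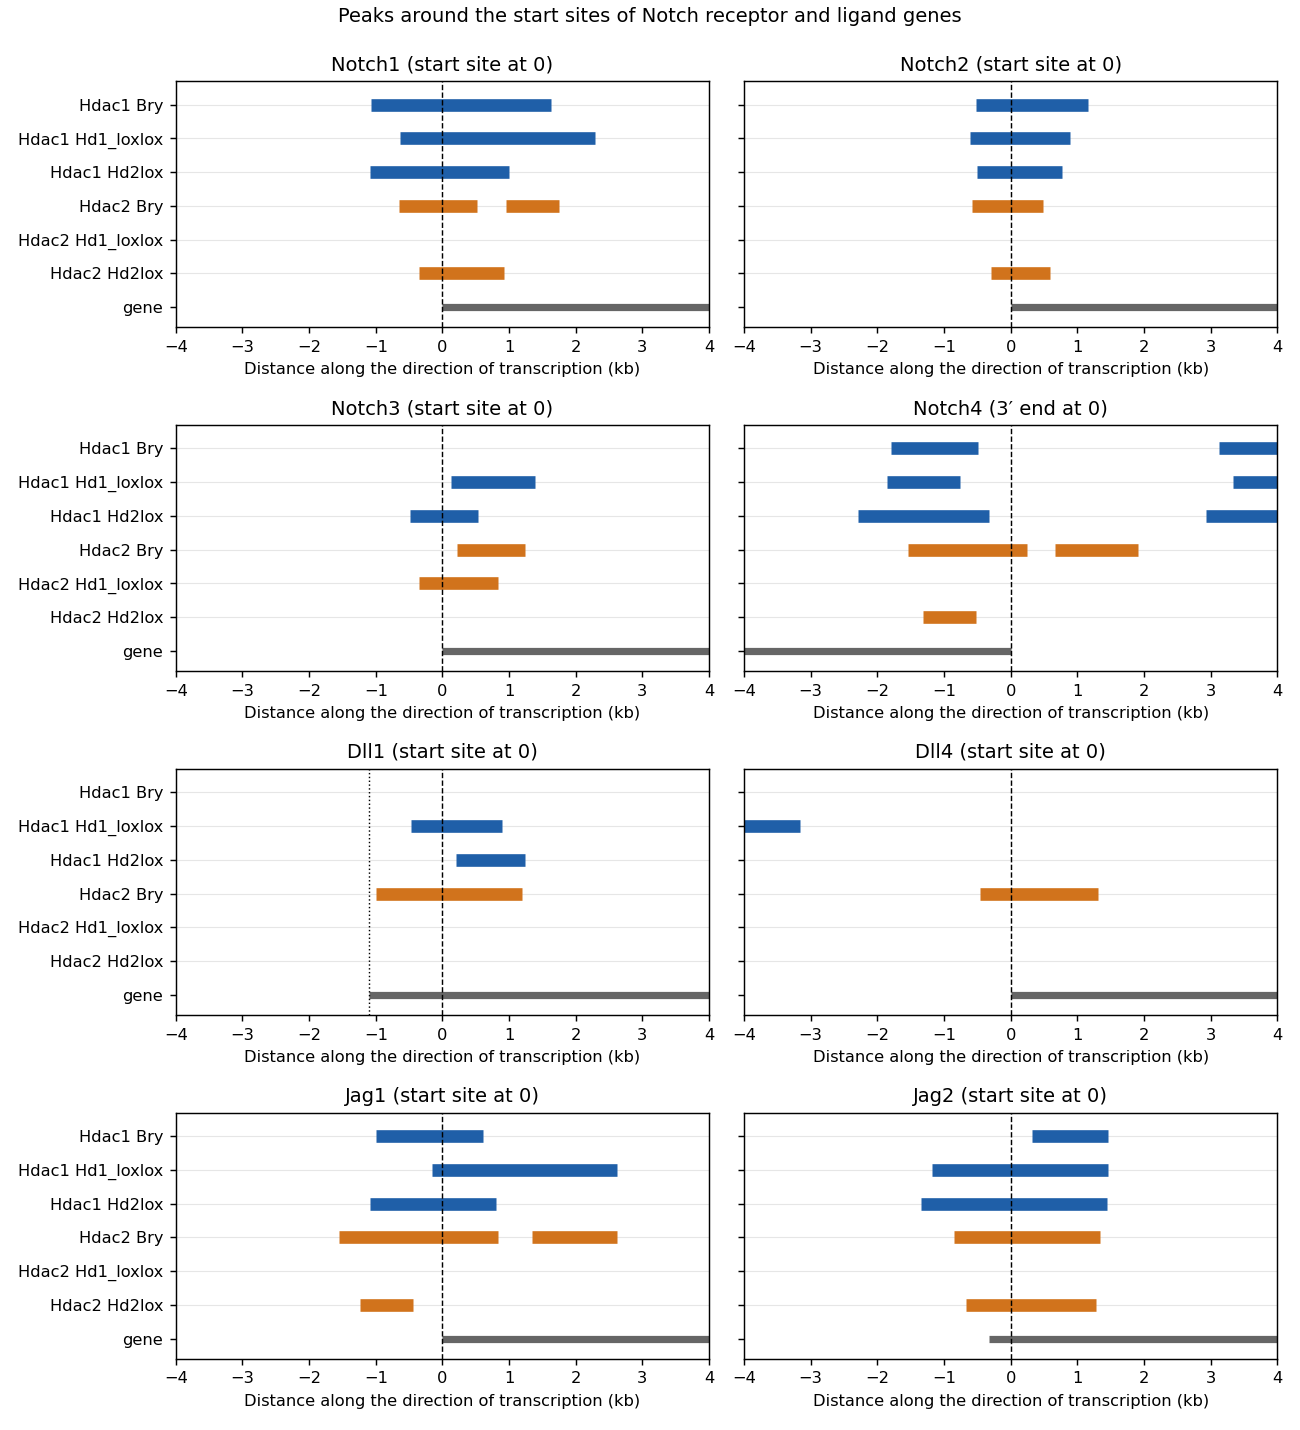
Peaks (bars, blue Hdac1, orange Hdac2, 1 row per library) around the listed start site of each gene, in kb along the direction of transcription, with the 3′ end at 0 for Notch4 and the gene in grey. The dotted line marks the other listed start of Dll1. Peaks lie over or beside the start at 7 genes, that of Hdac2 in Hd2lox lies wholly upstream at Jag1, and the Hd1_loxlox Hdac2 row holds a peak at Notch3 only.

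**Figure D4:**
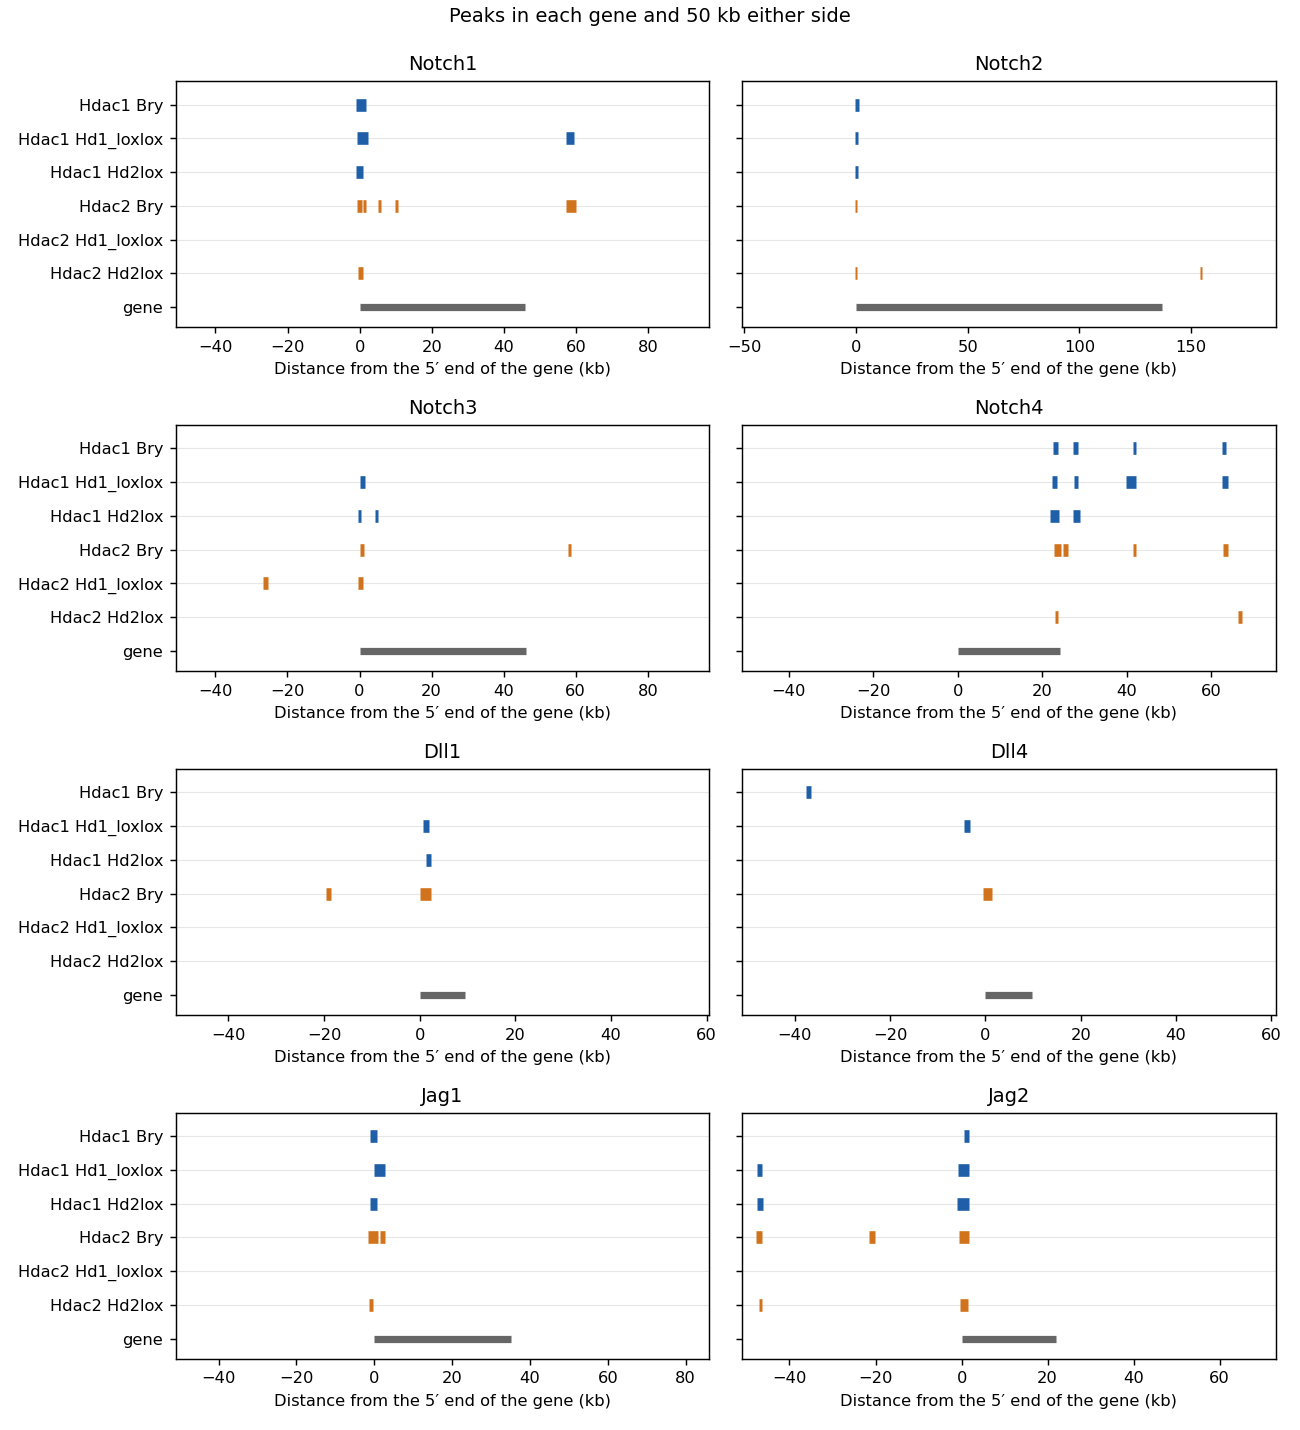
Peaks in each gene (grey) and 50 kb either side, in kb from the annotated 5′ end along the direction of transcription, 1 row per library (blue Hdac1, orange Hdac2). Away from the gene ends, the regions in more than 2 lists are 3 downstream of Notch4 and the distant region upstream of Jag2.

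Outside the ends of the gene itself the loci held 16 regions. Of these, 5 touched an end of another protein-coding gene, Sec16a beside Notch1, Gpsm3 with Pbx2 and Rnf5 with Agpat1 beyond Notch4, Fam120b beside Dll1 and Vps18 beside Dll4, and 10 touched an end of no annotated gene. Of the 62 peaks, Bry gave 9 of Hdac1 and 20 of Hdac2, Hd1_loxlox gave 13 and 2, and Hd2lox gave 10 and 8. Each list has a different number of peaks in all, so these counts are not comparable between lists without that in view.

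To compare the antibodies gene by gene, the length of the end windows that peaks covered was taken in each list and tested for all 21887 protein-coding genes. Notch1 had 2001, 1643 and 1993 bp covered by Hdac1 in Bry, Hd1_loxlox and Hd2lox, against 1214, 0 and 1282 bp by Hdac2. In these lengths every Hdac1 value was above every Hdac2 value. The means were 1879 ± 204.4 bp for Hdac1 and 832 ± 721 bp for Hdac2 (SD, n = 3 each; difference 1047 bp, higher in 3 of 3 lines; exact two-sided permutation p = 0.1, the smallest this design allows, adjusted p = 1). Notch2 had 1518, 1510 and 1282 bp for Hdac1 and 1080, 0 and 898 bp for Hdac2. Its groups did not overlap either (1437 ± 134.0 and 659 ± 578 bp, SD, n = 3 each; difference 777 bp, higher in 3 of 3 lines; exact permutation p = 0.1, adjusted p = 1). Without the Hd1_loxlox Hdac2 list the differences were 631 bp at Notch1 and 448 bp at Notch2, and the groups still did not overlap. The separation was lost at both genes when the length was divided by the Mb that each list covers in all (exact permutation p = 0.2 at each). On that scale Hdac2 of Hd2lox, at 160 bp per Mb, was above Hdac1 of Hd1_loxlox, at 136 bp per Mb, at Notch1, and the groups overlapped at Notch2 too. It was also lost at Notch1 with windows of 500 bp and at Notch2 with wider peaks only (exact permutation p = 0.4 at each). Groups with every Hdac1 list above every Hdac2 list were seen at 4.23% of protein-coding genes. No gene (0%) had an adjusted p under 0.05, and 0 had an unadjusted one, as 3 lists against 3 cannot give it.

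At the other 6 genes the Hdac1 and Hdac2 values overlapped. Jag1 had 1613, 1162 and 1804 bp for Hdac1 in Bry, Hd1_loxlox and Hd2lox, and 1832, 0 and 554 bp for Hdac2 (difference 731 bp, exact permutation p = 0.4; 333.3 bp without the Hd1_loxlox Hdac2 list). Jag2 had 365, 1860 and 2001 bp for Hdac1 and 1526, 0 and 1349 bp for Hdac2 (difference 450.3 bp, exact permutation p = 0.5), and without the Hd1_loxlox Hdac2 list the difference was -28.8 bp. In Bry the covered length was lower for Hdac1 than for Hdac2 at both. Notch3 had 0, 860 and 1016 bp for Hdac1 and 773, 1188 and 0 bp for Hdac2, so that each antibody lacked it in a different line (difference -28.3 bp, exact permutation p = 1; 239 bp without the Hd1_loxlox Hdac2 list). Notch4 had 515, 247 and 673 bp for Hdac1 and 1585, 0 and 481 bp for Hdac2 (difference -210.3 bp, exact permutation p = 0.9; -554.7 bp without that list). The 1585 bp in Bry include part of the separate peak over the Gpsm3 end. The Bry Hdac2 peak over the last part of Notch4 covered 1245 bp by itself, still above the 515 bp of Hdac1. Dll1 had 0, 357 and 0 bp for Hdac1 and 891, 0 and 0 bp for Hdac2 (exact permutation p = 1), and Dll4 had 0 bp in the 3 Hdac1 lists and 1458, 0 and 0 bp for Hdac2 (exact permutation p = 1). The adjusted p was 1 at all 6 genes. The highest Hdac2 value was that of Bry at 6 of the 8 genes, Notch1 and Notch3 being the others.

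**Figure D5:**
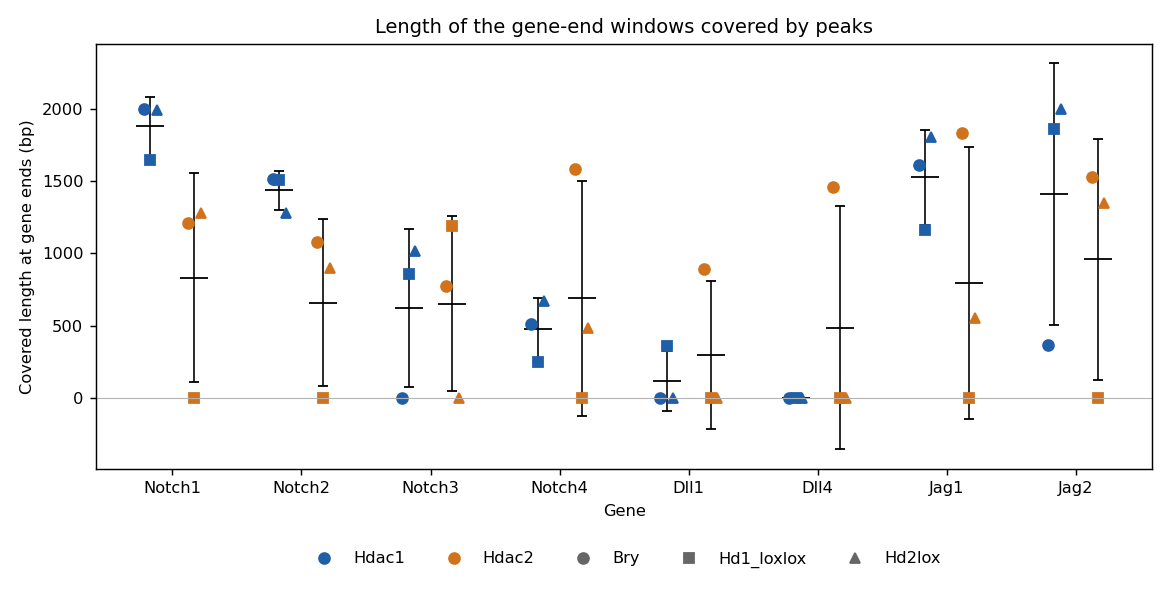
Length of the end windows covered by peaks (bp) at each gene, for Hdac1 (blue, left) and Hdac2 (orange, right); symbols mark the line, and the black bar and whiskers are the mean and SD of 3 lines, the whiskers passing below 0 where the SD exceeds the mean. The Hdac1 points lie above the Hdac2 points at Notch1 and Notch2, and the groups overlap at the other 6 genes.

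Over the gene and 50 kb either side, the covered lengths of the antibodies overlapped at all 8 genes, and every Hdac1 list was above every Hdac2 list at 5.41% of protein-coding genes. The largest difference was at Notch4, where Hdac1 covered 4252, 5985 and 3691 bp in Bry, Hd1_loxlox and Hd2lox and Hdac2 covered 5157, 0 and 1635 bp (difference 2379 bp; exact permutation p = 0.3; 1247 bp without the Hd1_loxlox Hdac2 list). With peaks at the ends of other genes left out the Notch4 difference was 711.7 bp (exact permutation p = 0.6), and it was 575.5 bp without the line Hd1_loxlox and 4020.5 bp without Bry. At Notch1 the values were 2702, 5268 and 2073 bp for Hdac1 and 6277, 0 and 1282 bp for Hdac2 (difference 828 bp, exact permutation p = 0.7), and without the Hd1_loxlox Hdac2 list the difference was -432 bp. No gene (0%) had an adjusted p under 0.05 for this measure.

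The combination of lists seen at Notch1, Notch2, Notch4, Jag1 and Jag2, with no end peak in the Hd1_loxlox Hdac2 list, was held by 1366 protein-coding genes (6.24%), and that at Dll1 by 340. The genes nearest in covered length at the ends, by the mean absolute difference over the 6 lists, were Adgrl2 (99.8 bp) and Slc16a1 (116.8 bp) for Notch1, and Soga1 (39.2 bp) and Homer3 (49.7 bp) for Notch2. They were Camsap3 (150.8 bp) and Fam193b (198 bp) for Notch3, Gm42337 (168 bp) and Snx30 (173 bp) for Notch4, and Rad52 (13.5 bp) and Car10 (31.7 bp) for Dll1. For Jag1 they were Ptpn4 (103.5 bp) and Pawr (119 bp), and for Jag2 Gprin1 (136.7 bp) and Parp12 (150.5 bp). Likeness over 6 lists says nothing of shared function.

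The rest of the pathway was counted for comparison. Of 58 other Notch pathway genes, 33 (56.9%) had an Hdac1 end peak in at least 2 lines, against 30.2% of protein-coding genes. For Hdac2 it was 17 (29.3%), against 10.6%. An end peak in at least 5 lists was found at 13 of the 58, against 7.15% of protein-coding genes. No list held one at 5 of them, against 52.2%. A gene without an end peak can still hold peaks elsewhere. Of the 58 genes, 1 had no peak in the gene body in any list, against 44.2% of protein-coding genes. Over the gene and 50 kb either side 0 had none, against 19.4%. Nuclear effectors had Hdac1 at 10 of 13 and Hdac2 at 5, with the coactivators Maml1, Ep300 and Kat2b and the co-repressor Spen in 5 lists each, while Rbpj itself had no end peak in any list. Ligand and receptor modifiers had Hdac1 at 6 of 9 and Hdac2 at 4. Among them Pofut1, which puts fucose on the receptors, and Mib1, a ubiquitin ligase needed for ligand endocytosis, were in 5 lists, Rfng, a Fringe glycosyltransferase, was in 6, and Mfng, another Fringe, was in none. Target genes had Hdac1 at 7 of 11 and Hdac2 at 2, with Hes1 and the feedback inhibitor Nrarp in 5 lists. Genes of trafficking and turnover had Hdac1 at 7 of 10 and Hdac2 at 3, with the ubiquitin ligase genes Nedd4, Fbxw7 and Dtx4 in 5 lists and Dtx2 in none. Proteases had Hdac1 at 2 of 10, against 30.2% of protein-coding genes, and Hdac2 at 1, near the 10.6% of protein-coding genes. Adam10, which makes the first ligand-induced cut, was in 5 lists, and the gamma-secretase genes Psen2 and Aph1b were in none. The other ligands and membrane regulators, Dll3, Dlk1, Dlk2, Dner and Egfl7, had Hdac1 in at least 2 lines at 1 of 5 and Hdac2 at 2. The Hd1_loxlox Hdac2 list held 2 of the 58, Rfng and Mib1, against 2.71% of protein-coding genes. Without it 16 genes had Hdac2 in both other lines, against 9.61%. With Bry left out the Hdac2 count was 1, against 0.731%, and with Hd2lox left out it was 2, against 1.44%.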

How the data were processed

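Per the submitters' processing notes, the tools were bcl2fastq, Bowtie2 2.2.9, SAMtools 1.3.1 and MACS2 2.1.1.20160309, on the mm10 build; no source used here states the calling threshold or whether inputs served as controls. The deposited files, made by the authors for each of 6 ChIP libraries, give chromosome, start and end only, with no score, count or other unit of height. Positions are printed 1-based. Genes and strands came from RefSeq tables of GRCm38.p6, the same assembly. A gene was counted when a peak overlapped, by 1 bp or more, a window of 1000 bp either side of an annotated end. Covered length is the number of bases of these windows, or of the gene and 50 kb either side, inside peaks. It was compared between antibodies across all genes, Hdac1 minus Hdac2, by exact two-sided permutation over 20 arrangements with Benjamini-Hochberg adjustment over 21887 genes at 0.05. The covered length was checked against a base-by-base count on the real peaks. The permutation test was run on simulated data with planted differences, which unlike these lists held almost no zeros. Planted genes could reach only the smallest p of the design, so that run cannot show that the adjusted test finds differences. A line gave both its Hdac1 and its Hdac2 library, so the labels pair the lists by line, and the paired alternative flipped signs within lines (smallest p 0.25). The genes, pathway list and tests were chosen with earlier results of these data known. Genes named were the 8 genes, pathway genes with an end peak in at least 5 lists or in none, the 2 nearest in pattern, and neighbours at whose ends a peak lay. Python 3.11.15, numpy 2.4.6 and pandas 2.3.3 were used.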

Additional observations from a re-analysis of the deposited data

Results flagged for a closer look

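The difference in covered length at the gene ends, Hdac1 minus Hdac2, had opposite signs between lines at 5 genes. With 1 pair of lists per line the difference between lines was not tested. At Jag2 it was 1860 bp in Hd1_loxlox, 652 bp in Hd2lox and -1161 bp in Bry. At Jag1 it was 1162 bp in Hd1_loxlox, 1250 bp in Hd2lox and -219 bp in Bry. At Notch4 it was 247 bp in Hd1_loxlox, 192 bp in Hd2lox and -1070 bp in Bry, where Hdac2 includes part of a Gpsm3-end peak. At Dll1 it was 357 bp in Hd1_loxlox and -891 bp in Bry, and at Notch3 it was -328 bp in Hd1_loxlox, 1016 bp in Hd2lox and -773 bp in Bry. The Hdac2 list of Bry is the longest of the 6, with 9279 peaks, and that of Hd1_loxlox the shortest, with 5161. Bry, where the difference was negative at all 5 genes, was also the only line at passages 16 to 19. Line and passage cannot be told apart for Bry, and the part of list length in these signs was not tested.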

How the results depend on the processing

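No read depth was given, so absence of a peak is not absence of the protein, and no p in this design can reach 0.05. The Hdac1 count of 6 genes, against 30.2% of protein-coding genes, lay between 4 and 7 under the alternatives tried. It was 4 with wider peaks only, against 14.7%, and 7 with at least 1 line, against 43.2%. With windows of 2000 and 5000 bp it was also 7, and the share of all genes was not computed. As the share changes with the setting, the range of the count alone is no measure of stability. The Hdac2 count of 6 became 5 with windows of 500 bp, where the share of all genes was not computed. It was 1 with wider peaks only, against 5.16%, and 0 when all 3 lines were required, against 0.603%. It ranged from 0 to 5 with a line or the Hd1_loxlox Hdac2 list left out. For the 58 other pathway genes, wider peaks gave 21 for Hdac1, against 14.7% of protein-coding genes, and 10 for Hdac2, against 5.16%. All 3 lines gave 21, against 14.6%, and 1, against 0.603%. At least 1 line gave 50 for Hdac2, against 39.4%. Leaving out a line, with a peak required in both other lines, gave 23 to 27 for Hdac1, where the share of all genes was not computed. For Hdac2, leaving out a line or the Hd1_loxlox Hdac2 list gave from 1, against 0.731%, to 16, against 9.61%. For these 58 genes the settings were chosen after seeing the data. At the gene ends the differences of Notch1, Notch2 and Jag1 kept their sign in all 12 alternatives each. Some of the 12 could not change it. Pairing by line leaves the mean difference as it is, and the 5′ end alone or any listed start gave the same values at these genes. With a line or list left out the ranges were 631 to 1215, 411 to 974 and 333.3 to 1206 bp. The separation of Hdac1 from Hdac2 values at Notch1 and Notch2 did not hold per Mb covered by the list (p = 0.2 at both, exact permutation), nor at Notch1 with 500 bp windows or at Notch2 with wider peaks only (p = 0.4 at each, exact permutation). Dll4 was never above 0. Others changed sign: Notch3 was 72.7 bp with 500 bp windows, 21.3 with 2000 bp and 279.7 with 5000 bp; Notch4 was 80.7 and 1454 bp, and Dll1 53.3 and 73 bp, with 2000 and 5000 bp. With any listed start counted, chosen after seeing the data, Dll1 was at 55.7 bp. Leaving out a line or list gave -550.5 to 344 bp for Notch3, -554.7 to 219.5 for Notch4, -445.5 to 178.5 for Dll1 and -254.5 to 1256 for Jag2. In the wider locus, 20 kb either side gave 9.33 bp for Notch3 and -152 for Dll4, and 100 kb gave -27.7 for Notch2, 644 for Notch3 and -164.3 for Dll4. Wider peaks gave -588.7 bp for Dll4 and -299 for Jag2, and leaving out peaks at ends of other genes gave 73 for Dll1 and -152 for Dll4. Leaving out a line or list gave -1392 to 3029.5 bp for Notch1, -1508 to 357 for Notch3, -1101 to 1203.5 for Dll1, -328 to 655 for Dll4, -479 to 1941.5 for Jag1 and -1133.5 to 2625.5 for Jag2. The cause was not tested. Pairing the lists by line left every difference as it was (the replicate block gave 1047 bp for Notch1, p = 0.25 by exact sign-flip permutation) and changed no call.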
